A study of Homo sapiens with 12 samples.

Results

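Integrins and laminins are the receptors and the sheet-forming ligands through which cells hold on to a basement membrane. Their genes were taken from the table of raw gene counts by symbol: integrin alpha subunits (ITGA), integrin beta subunits (ITGB) and laminin chains (LAMA, LAMB and LAMC). Of 58735 genes in the table, 38 had such a symbol, and the 31 with a summed count of at least 120 over all libraries are described, made up of 14 of 18 integrin alpha, 6 of 8 integrin beta and 11 of 12 laminin genes. Just inside the threshold stood LAMA3 with 205 reads and ITGA10 with 210, and just outside it ITGAD with 86 and ITGAM with 77. The other genes below it were ITGA8 with 22 reads, ITGB7 with 14, ITGAL with 9, and ITGB6 and LAMB4 with 3 each. All 31 passed the low-count filter of the test.

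An integrin is a pair of 1 alpha and 1 beta subunit that spans the plasma membrane, binds matrix proteins outside the cell and connects to actin through talin and other adaptors inside it. The pairing sets the ligand: some alpha subunits give collagen receptors, others laminin receptors, and a further set binds the RGD motif of fibronectin and vitronectin. A laminin is a trimer of 1 alpha, 1 beta and 1 gamma chain that assembles into the network of the basement membrane and carries the sites that integrins bind. RNA levels say nothing directly about how many pairs or trimers form.

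RNA was sequenced from U2OS cells, a human osteosarcoma line, after 24 h with 10 µM TH10785 (an activator of the DNA glycosylase OGG1), with 10 µM PNKP1i, with both at 10 µM each, or with the solvent DMSO, in 3 libraries a group. The labels give the same line for every group. The series record spells the first compound TH10587, and the sample labels' spelling is used here. Nothing in the labels says that replicates were separate cultures. Every p-value below therefore speaks only of how these 12 samples vary, and that variation may be technical.

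Library totals lay between 16225339 and 21546369 counts. The 3 libraries with both compounds lay at 47.7 to 88.6 on the first principal component (50.4% of the variance), with every other library below 0, and replicate 3 of TH10785 stood apart at -54.5. Genes with a GC content under 40% sat above the DMSO mean in the libraries with both compounds, by a median of 0.46 to 0.80 on the log2 scale. Their median was 0.21, 0.10 and -0.63 in replicates 1, 2 and 3 of TH10785. It was -0.27, -0.07 and -0.21 in those of PNKP1i, while DMSO libraries lay between -0.05 and 0.06. Genes over 60% GC had medians of -0.37 to -0.34 with both compounds, 0.22 in replicate 3 of TH10785, and -0.07 to 0.08 with DMSO. The fold changes of all genes were therefore also computed with offsets for GC content and length, while levels in CPM and RPKM and their ratios carry no such correction. A call is an adjusted p under 0.05. Of 8 markers of the osteoblast and mesenchymal lineage, COL1A2 was near 0 in every library. The summed level of the 8 was 2570 to 3370 CPM (read counts scaled to library size) with both compounds, against 4610 to 5640 CPM with DMSO. Of the 8, ALPL was higher with both compounds (mean 8.43 CPM, against 3.03 CPM with DMSO). Its mean was 10.8 CPM with TH10785 alone and 3.04 CPM with PNKP1i alone. The 4 epithelial markers summed to 6.48 to 8.68 CPM with both compounds and 15.7 to 19.7 CPM with DMSO. KRT5 (mean 0.517 CPM with both compounds and 4.1 CPM with DMSO) and KRT14 (1.16 and 8.02 CPM) were lower with both compounds, whereas EPCAM (3.65 and 3.41 CPM) and CDH1 (2.54 and 1.99 CPM) were not. The part of these shifts in the results was not tested. In RNA from whole cultures, fewer cells of a kind and less RNA per cell cannot be told apart.

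Compared as RPKM, which divides CPM by exon length, DMSO cells expressed a small set of these genes at high levels. Among alpha subunits, ITGA3, a laminin receptor subunit, stood first at 81.5 ± 10.6 RPKM (SD, n = 3), followed by the fibronectin receptor subunit ITGA5 at 25.0 ± 3.02 RPKM. ITGA3 alone held 60.4% to 64.6% of the summed RPKM of the 14 alpha genes in the DMSO libraries. ITGA7 stood at 7.39 ± 0.551 RPKM, ITGAV at 6.63 ± 0.655 RPKM, ITGA6 at 4.22 ± 0.177 RPKM and ITGAE at 2.73 ± 0.929 RPKM. The other 8 alpha genes lay below 1 RPKM, from ITGA2 at 0.842 ± 0.163 down to ITGA1 at 0.0891 ± 0.0303.

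Among beta subunits in DMSO, ITGB5 stood at 66.4 ± 7.81 RPKM and ITGB1, the partner of most alpha subunits, at 59.6 ± 3.95 RPKM, with overlapping libraries. ITGB4 followed at 5.51 ± 0.421 RPKM, with ITGB2 at 1.27 ± 0.142, ITGB8 at 1.24 ± 0.154 and ITGB3 at 0.832 ± 0.290 RPKM. Of the laminin chains, LAMA5 led the alpha chains at 30.96 ± 2.18 RPKM, with LAMA1 at 4.98 ± 0.300, and LAMA2, LAMA4 and LAMA3 at 0.482 ± 0.136, 0.371 ± 0.0980 and 0.0854 ± 0.00960 RPKM. LAMB3 stood at 42.5 ± 5.18 RPKM, above LAMB2 at 20.9 ± 1.40 and LAMB1 at 14.3 ± 2.13. LAMC1, the gamma chain of most laminins, stood at 38.2 ± 4.47 RPKM and LAMC3 at 6.37 ± 0.769.

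Each compound given alone left the set nearly without a call. With TH10785 against DMSO, 0 of the 31 genes passed edgeR's quasi-likelihood test (adjusted p under 0.05, Benjamini-Hochberg over 17290 genes). Of all tested genes 0.561% did (0.515% higher and 0.0463% lower). DESeq2 also called 0 of the 31. By edgeR 7 of the 31 had an unadjusted p under 0.05, where 2445 of all 17290 tested genes did. The median log2 fold change was -0.07 over the set and -0.02 over all tested genes. The groups did not overlap in 6 genes that were higher and 5 that were lower with TH10785, where 9.64% and 10.0% of all tested genes were so placed. ITGB5 (log2 fold change 0.38) and ITGA3 (0.38) lay above all DMSO libraries and LAMA4 (-1.51) below them, with edgeR adjusted p = 0.214, 0.24 and 0.18. LAMA4 was called without the low-count filter (edgeR adjusted p = 0.000482). With the GC and length offsets, ITGA3 passed (log2 fold change 0.47, edgeR adjusted p = 0.0249). Over all genes those offsets also changed the split of calls, which ran 73.3% upward with them and 91.8% upward without.

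With PNKP1i alone, 1 of 31 genes (3.23%) passed, where 0.197% of all tested genes did (0.174% higher and 0.0231% lower). An unadjusted p under 0.05 was found for 6 of the 31, and for 1957 of all 17290 tested genes. Groups that did not overlap were found for 5 higher and 4 lower genes, against 11.7% and 14.2% of all tested genes. Leaving out 1 library at a time gave 0 to 2 genes lower with PNKP1i.

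Given together, the compounds changed many more of these genes. Against DMSO, 8 of the 31 genes rose and 9 fell (54.8%), where 41.0% of all tested genes were called, 21.3% higher and 19.7% lower. ITGA2, ITGAX, LAMA1, ITGA1, ITGA6, LAMB1, ITGA4 and ITGB5 rose, and ITGA11, LAMA3, ITGB4, LAMA5, LAMB2, ITGA7, LAMC3 and ITGA5 were among those that fell. The median log2 fold change was -0.13 over the 31 genes and 0.04 over all tested genes. The groups did not overlap in 10 genes that were higher and 10 that were lower with both compounds, where 28.4% and 25.2% of all tested genes were so placed. With the GC and length offsets 8 of the 31 genes were called higher and 4 lower, where 5886 of all 17290 tested genes were called in either direction. Without replicate 1 of both compounds, the most distant of its group, 7 of the set were higher and 8 lower. In that fit 5650 of 17682 tested genes were called. Without TH10785 replicate 3 the set had 9 higher and 10 lower, and 8468 of 17804 tested genes were called.

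**Figure D1:**
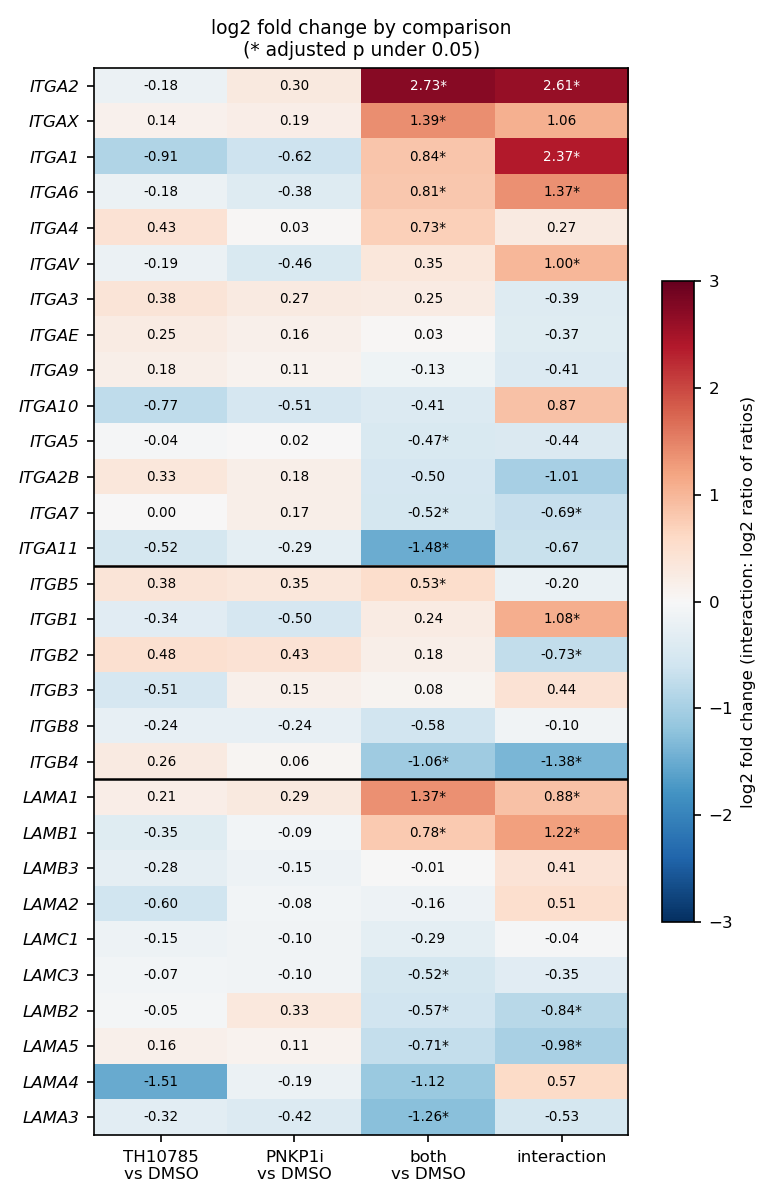
Log2 fold changes of 30 of the 31 genes (rows, in the order of integrin alpha, integrin beta and laminin genes, each sorted by the values of both compounds) for TH10785, PNKP1i and both compounds over DMSO, and the interaction (columns); red is higher, blue is lower, and an asterisk marks an adjusted p under 0.05. The columns of the single compounds hold no asterisk, and that of both compounds holds 16.

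Of the 4 collagen receptor subunits, ITGA2 rose and ITGA11 fell in every fit. ITGA2 (ENSG00000164171, chromosome 5, 52989326 to 53094779, GRCh38), which pairs with ITGB1 and binds collagen and laminin, had 70.8, 22.9 and 39.2 CPM with both compounds, 7.78, 6.37 and 3.61 CPM with TH10785, 5.69, 12.5 and 6.47 CPM with PNKP1i, and 6.10, 5.74 and 8.14 CPM with DMSO. All 3 libraries with both compounds lay above the other 9, with replicate 1 highest and replicate 2 lowest of them. ITGA2 rose (6.63-fold; log2 fold change 2.73, SE 0.37, edgeR adjusted p = 5.43e-05), and its log2 fold change stayed between 2.20 and 3.05 over 20 alternative fits, past the threshold in each.

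Its neighbour ITGA1 (ENSG00000213949, chromosome 5, 52787896 to 52959210), a collagen receptor subunit that lies 30.1 kb away on the same strand, was expressed far less. ITGA1 had 4.02, 2.28 and 2.67 CPM with both compounds, 1.16, 0.828 and 0.666 CPM with TH10785, 1.07, 1.35 and 0.839 CPM with PNKP1i, and 1.38, 1.28 and 2.30 CPM with DMSO. The highest DMSO library overlapped the lowest with both compounds, and the call was near the threshold (log2 fold change 0.84, SE 0.31, edgeR adjusted p = 0.0391). It was kept in 12 of 20 alternative fits, and ended with the GC and length offsets (log2 fold change 0.31, edgeR adjusted p = 0.433), with the replicate number as a block (0.0614, and 0.488 with the offsets added), with only the groups compared (0.051), without replicate 1 (0.183) or 3 (0.0539) of both compounds, and without DMSO replicate 1 (0.125) or 2 (0.149). ITGA1 shares 475 exonic bases with PELO on the same strand, a gene with 8586 reads against 384 for ITGA1, so reads could have been split between them.

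ITGA11 (ENSG00000137809, chromosome 15, 68296533 to 68432162), the collagen receptor subunit of mesenchymal cells, fell. It had 0.823, 1.502 and 1.04 CPM with both compounds, 2.64, 2.28 and 1.66 CPM with TH10785, 2.54, 2.85 and 2.32 CPM with PNKP1i, and 2.75, 3.12 and 3.53 CPM with DMSO. The libraries with both compounds all lay below the other 9 (log2 fold change -1.48, SE 0.27, edgeR adjusted p = 0.000587), and the call was kept in all 20 alternative fits. ITGA10, a collagen receptor subunit of cartilage, had 1.21, 0.485 and 1.09 CPM with both compounds, against 1.14, 2.02 and 0.589 CPM with DMSO, which overlapped (log2 fold change -0.41, edgeR adjusted p = 0.467).

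Among the laminin receptor subunits, ITGA6 rose and its hemidesmosome partner ITGB4 fell. ITGA6 (ENSG00000091409, chromosome 2, 172427354 to 172506282) pairs with ITGB1 or ITGB4 and had 57.2, 40.2 and 47.4 CPM with both compounds, 28.5, 27.2 and 17.1 CPM with TH10785, 19.2, 24.2 and 20.0 CPM with PNKP1i, and 27.2, 26.6 and 28.8 CPM with DMSO. The libraries with both compounds lay above all others (log2 fold change 0.81, SE 0.18, edgeR adjusted p = 0.00203). ITGB4 (ENSG00000132470, chromosome 17, 75721328 to 75757818), whose long cytoplasmic tail binds plectin, had 13.7, 20.0 and 19.9 CPM with both compounds, 38.9, 42.8 and 52.0 CPM with TH10785, 43.7, 36.1 and 36.6 CPM with PNKP1i, and 34.0, 38.7 and 39.1 CPM with DMSO. Here the libraries with both compounds lay below all others, and no other group was lower than DMSO on average (log2 fold change -1.06, SE 0.16, edgeR adjusted p = 0.000118). Both calls were kept in all 20 alternative fits, with log2 fold changes of 0.52 to 0.93 for ITGA6 and -1.14 to -0.58 for ITGB4.

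ITGA7, the laminin receptor subunit of muscle, had 24.4, 34.3 and 39.4 CPM with both compounds, against 43.7, 46.8 and 50.7 CPM with DMSO. It fell (log2 fold change -0.52, SE 0.15, edgeR adjusted p = 0.0111), though not past the threshold with the GC and length offsets (log2 fold change -0.15, edgeR adjusted p = 0.369) or without replicate 1 of both compounds (log2 fold change -0.34, edgeR adjusted p = 0.0559). ITGA3, the most abundant alpha subunit, had 1035, 865 and 959 CPM with both compounds, against 680.4, 844 and 873 CPM with DMSO. The groups overlapped and the gene was not called (log2 fold change 0.25, edgeR adjusted p = 0.162), but it passed with the offsets (log2 fold change 0.68, edgeR adjusted p = 8.4e-05).

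The common partner subunit ITGB1 had 412, 390.5 and 467 CPM with both compounds, 370.3, 323 and 155 CPM with TH10785, 238, 305 and 218 CPM with PNKP1i, and 351, 339 and 385 CPM with DMSO. With both compounds it lay above all DMSO libraries without a call (log2 fold change 0.24, edgeR adjusted p = 0.406), and its sign turned with the GC and length offsets (log2 fold change -0.28, edgeR adjusted p = 0.0886). TH10785 replicate 3 was the lowest of the 12 libraries. ITGAV, the shared alpha subunit of vitronectin receptors, showed the same arrangement with 60.6, 61.8 and 85.6 CPM with both compounds, 60.9, 57.5 and 25.2 CPM with TH10785, 39.2, 44.5 and 34.8 CPM with PNKP1i, and 53.0, 49.9 and 60.4 CPM with DMSO (log2 fold change 0.35, edgeR adjusted p = 0.242; with the offsets log2 fold change -0.22, edgeR adjusted p = 0.157), and was called higher without TH10785 replicate 3 (log2 fold change 0.36, edgeR adjusted p = 0.0252).

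ITGB5 (ENSG00000082781, chromosome 3, 124761948 to 124901418), which pairs with ITGAV to bind vitronectin, had 702, 553 and 599 CPM with both compounds, 507, 520.2 and 646 CPM with TH10785, 516, 562 and 558 CPM with PNKP1i, and 372, 470.3 and 442 CPM with DMSO. Every library with a compound lay above all DMSO libraries, and the gene rose with both compounds (log2 fold change 0.53, SE 0.14, edgeR adjusted p = 0.00543), a call kept in all 20 alternative fits. ITGA5, the fibronectin receptor subunit, had 149, 126 and 136 CPM with both compounds, against 167, 187 and 213 CPM with DMSO. It fell (log2 fold change -0.47, SE 0.13, edgeR adjusted p = 0.0109), but the call ended with the offsets (log2 fold change -0.23, edgeR adjusted p = 0.117) and without DMSO replicate 3 (log2 fold change -0.38, edgeR adjusted p = 0.0591). ITGB8, which with ITGAV activates latent TGF-beta, had 7.26, 11.7 and 18.6 CPM with both compounds, against 19.4, 16.1 and 20.7 CPM with DMSO, which overlapped (log2 fold change -0.58, edgeR adjusted p = 0.104), and it was called with the offsets (log2 fold change -1.17, edgeR adjusted p = 0.000269), without replicate 3 of both compounds (log2 fold change -0.97, edgeR adjusted p = 0.0126) and without the low-count filter (edgeR adjusted p = 0.0196). ITGB3, whose exons share 2266 bases with a second gene model on the same strand that held 0 reads, was at 3.87 ± 1.05 CPM with both compounds and 3.65 ± 1.28 CPM with DMSO (SD, n = 3 each; log2 fold change 0.08, edgeR adjusted p = 0.86).

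Subunits best known from blood cells were present at low levels. ITGAX, which pairs with ITGB2 on myeloid cells, had 6.10, 3.20 and 5.65 CPM with both compounds, 1.84, 1.71 and 2.72 CPM with TH10785, 1.86, 1.83 and 2.77 CPM with PNKP1i, and 1.97, 1.89 and 1.82 CPM with DMSO. Its libraries with both compounds lay above the other 9 (log2 fold change 1.39, SE 0.28, edgeR adjusted p = 0.00115), in all 20 alternative fits past the threshold. ITGA4, a receptor subunit for VCAM1 and fibronectin, had 2.08, 3.49 and 2.89 CPM with both compounds, against 1.44, 2.08 and 1.61 CPM with DMSO, at an adjusted p of 0.0493 by edgeR (log2 fold change 0.73). That call was kept in 5 of 20 alternative fits. It ended with the offsets (log2 fold change 0.52, edgeR adjusted p = 0.147), by DESeq2 (0.063), and without TH10785 replicate 1, any PNKP1i library, replicate 2 or 3 of both compounds, or any DMSO library, with edgeR adjusted p between 0.0518 and 0.172.

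ITGB2 had 9.44, 10.6 and 9.32 CPM with both compounds, against 7.54, 9.22 and 9.21 CPM with DMSO (log2 fold change 0.18, edgeR adjusted p = 0.443; with the offsets log2 fold change 0.56, edgeR adjusted p = 0.00617). ITGAE, ITGA9 and ITGA2B had log2 fold changes of 0.03, -0.13 and -0.50 with edgeR adjusted p = 0.911, 0.785 and 0.379. The reads of ITGA9 (334) and of its antisense partner ITGA9-AS1 (833) cannot be told apart where they overlap if strand was not used. The same holds for ITGAE (4406 reads) and HASPIN (6227 reads), which share 427 exonic bases on opposite strands. HASPIN was lower with both compounds than with DMSO (log2 fold change -0.77, edgeR adjusted p = 0.000149). The leukocyte markers CD3E and LYZ and the platelet markers PF4 and GP9 were at 0 in all 12 libraries, and PTPRC reached at most 0.366 CPM.

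**Figure D2:**
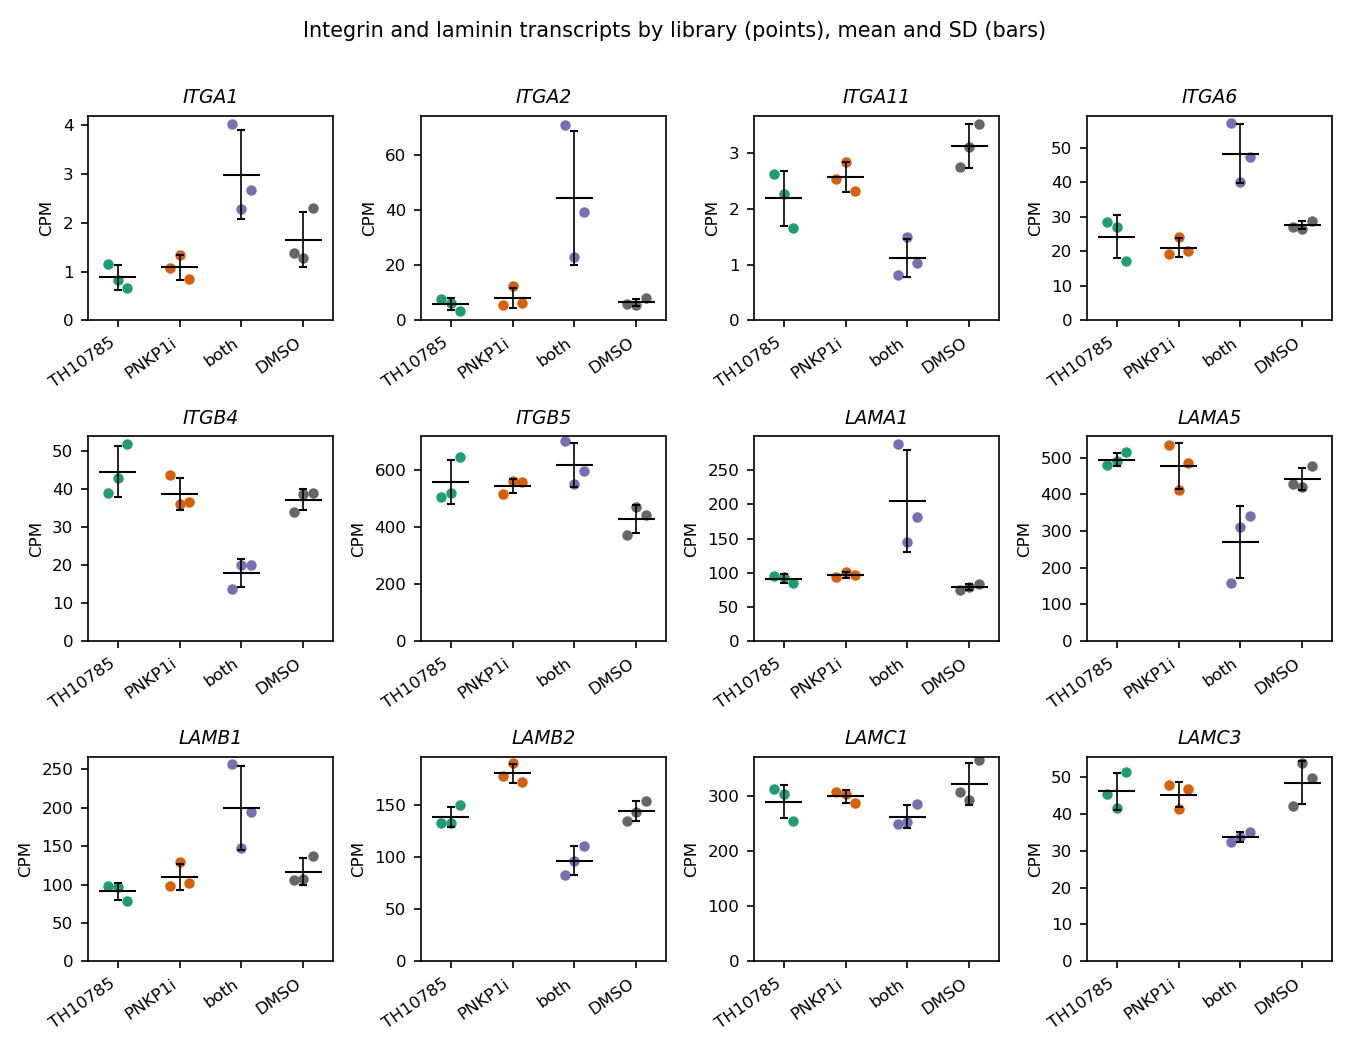
CPM of 12 genes in each library (points) with the mean and SD (bars, n = 3) for TH10785, PNKP1i, both compounds and DMSO; each panel has its own axis, starting at 0. The points of both compounds lie above all others for ITGA2, ITGA6, LAMA1 and LAMB1 and below all others for ITGA11, ITGB4, LAMA5, LAMB2 and LAMC3.

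Laminin chains split within each class. LAMA1 (ENSG00000101680, chromosome 18, 6941744 to 7117814), the alpha chain of embryonic laminin, had 289, 144 and 182 CPM with both compounds, 95.7, 94.0 and 84.7 CPM with TH10785, 93.4, 101 and 95.9 CPM with PNKP1i, and 74.7, 78.5 and 84.1 CPM with DMSO. The libraries with both compounds lay above the other 9, with replicate 1 highest, and the gene rose 2.59-fold (log2 fold change 1.37, SE 0.18, edgeR adjusted p = 3.56e-05), a call kept in all 20 alternative fits with log2 fold changes of 1.06 to 1.58. The 2 antisense genes that overlap LAMA1 held 5 reads each, against 27442 for LAMA1.

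LAMA5 (ENSG00000130702, chromosome 20, 62307955 to 62367312), the most abundant alpha chain here and a widespread one in adult basement membranes, went the other way. It had 159, 312 and 341 CPM with both compounds, 479, 491 and 515 CPM with TH10785, 535, 411 and 485 CPM with PNKP1i, and 429, 419.8 and 478 CPM with DMSO. The libraries with both compounds lay below the other 9, with replicate 1 lowest (log2 fold change -0.71, SE 0.20, edgeR adjusted p = 0.00956). The log2 fold change shrank to -0.17 with the GC and length offsets, where the gene was not called (edgeR adjusted p = 0.521). LAMA5 shares 244 exonic bases with ADRM1 on the opposite strand, and the sources used here do not say whether strand was used in the counting.

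The remaining alpha chains were low. LAMA3 had 0.581, 0.291 and 0.678 CPM with both compounds, against 1.38, 1.10 and 1.28 CPM with DMSO. It fell (log2 fold change -1.26, SE 0.45, edgeR adjusted p = 0.033), but not past the threshold with the offsets (log2 fold change -1.11, edgeR adjusted p = 0.0593), nor without replicate 1 (0.062) or 2 (0.119) of both compounds or any DMSO library (0.0831, 0.0557 and 0.075). LAMA4, a chain of vessel walls, had a log2 fold change of -1.12 with an edgeR adjusted p = 0.0622. It was called lower by DESeq2 (0.0338), and by edgeR without the low-count filter (0.00173), with only the groups compared (0.0108), without PNKP1i replicate 1 (0.0353) or 2 (0.025) and without replicate 3 of both compounds (log2 fold change -1.60, edgeR adjusted p = 0.0292). LAMA2, the chain of muscle laminin, had a log2 fold change of -0.16 with an edgeR adjusted p = 0.572.

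The beta chains LAMB1 and LAMB2, which can take the same place in a trimer, moved apart. LAMB1 (ENSG00000091136, chromosome 7, 107923799 to 108003255) had 257, 148 and 195 CPM with both compounds, 97.9, 97.1 and 78.7 CPM with TH10785, 97.9, 129 and 102 CPM with PNKP1i, and 106, 107 and 137 CPM with DMSO. The libraries with both compounds were the 3 highest (log2 fold change 0.78, SE 0.18, edgeR adjusted p = 0.00245), and the call was kept in all 20 alternative fits. LAMB2 (ENSG00000172037, chromosome 3, 49121114 to 49133118) had 82.8, 96.3 and 111 CPM with both compounds, 133, 132 and 149.8 CPM with TH10785, 178, 190.4 and 172 CPM with PNKP1i, and 134, 143 and 154 CPM with DMSO. The libraries with both compounds were the 3 lowest (log2 fold change -0.57, SE 0.12, edgeR adjusted p = 0.0014), but not past the threshold with the offsets (log2 fold change -0.17, edgeR adjusted p = 0.174). LAMB3 had 289.5, 145 and 157 CPM with both compounds, against 172, 205 and 220.1 CPM with DMSO; replicate 1 of both compounds was the highest and the groups overlapped (log2 fold change -0.01, edgeR adjusted p = 0.966). Without that library LAMB3 was called lower (log2 fold change -0.38, edgeR adjusted p = 0.0468).

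Of the gamma chains, LAMC1 had 248, 253 and 285 CPM with both compounds, against 307, 293 and 364 CPM with DMSO. Those groups did not overlap but the gene was not called (log2 fold change -0.29, edgeR adjusted p = 0.0601), though it passed by DESeq2 (0.0336), with RLE scaling (0.0497), with only the groups compared (0.0416) and without TH10785 replicate 3 (0.0263). LAMC3 had 32.4, 33.6 and 34.96 CPM with both compounds, against 42.1, 53.6 and 49.5 CPM with DMSO, and fell (log2 fold change -0.52, SE 0.13, edgeR adjusted p = 0.00369), though its log2 fold change was -0.03 with the offsets (edgeR adjusted p = 0.854).

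The promoters of 5 of these genes are shown because ITGA2 and ITGA1 are neighbours called in the same direction, LAMB1 and LAMB2 are alternative chains called in opposite directions, and LAMA5 was the most abundant laminin alpha gene. Each run is the 250 bases before a transcript start in RefSeq (GRCh38.p14), 5′ to 3′ on the strand of the gene, with capitals marking GGGCGG or its reverse complement CCGCCC, the letters of the SP1 motif; overlapping matches count separately.
ITGA2 (chr5:52989102-52989351, plus strand): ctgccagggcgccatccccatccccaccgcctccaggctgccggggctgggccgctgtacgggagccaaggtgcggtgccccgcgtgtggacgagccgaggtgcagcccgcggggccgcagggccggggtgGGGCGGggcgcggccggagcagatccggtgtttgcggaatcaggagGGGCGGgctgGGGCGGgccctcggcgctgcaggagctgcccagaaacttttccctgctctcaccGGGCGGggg
ITGA1 (chr5:52787666-52787915, plus strand): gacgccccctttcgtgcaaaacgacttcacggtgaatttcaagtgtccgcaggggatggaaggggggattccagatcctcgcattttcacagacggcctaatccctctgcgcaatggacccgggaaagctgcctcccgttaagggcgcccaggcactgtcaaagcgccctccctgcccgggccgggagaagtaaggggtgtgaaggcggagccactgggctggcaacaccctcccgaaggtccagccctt
LAMB1 (chr7:108003162-108003411, minus strand): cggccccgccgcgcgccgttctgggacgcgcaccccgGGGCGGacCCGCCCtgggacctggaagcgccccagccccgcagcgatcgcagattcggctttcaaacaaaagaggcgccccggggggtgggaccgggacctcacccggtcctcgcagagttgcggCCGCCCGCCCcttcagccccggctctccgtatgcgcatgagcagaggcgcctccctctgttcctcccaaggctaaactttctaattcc
LAMB2 (chr3:49133051-49133300, minus strand): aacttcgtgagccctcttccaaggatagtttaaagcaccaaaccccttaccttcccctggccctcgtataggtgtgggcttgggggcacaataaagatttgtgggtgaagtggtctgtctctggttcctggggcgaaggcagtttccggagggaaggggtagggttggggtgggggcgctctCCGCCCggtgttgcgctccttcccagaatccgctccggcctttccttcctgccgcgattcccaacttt
LAMA5 (chr20:62367313-62367562, minus strand): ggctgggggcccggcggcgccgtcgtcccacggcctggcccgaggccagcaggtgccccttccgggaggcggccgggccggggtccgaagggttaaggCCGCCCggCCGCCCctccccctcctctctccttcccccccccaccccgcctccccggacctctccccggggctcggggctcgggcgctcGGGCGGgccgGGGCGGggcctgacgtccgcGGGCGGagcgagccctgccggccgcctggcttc

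The windows held 4 SP1 matches for ITGA2, 0 for ITGA1, 4 for LAMB1, 1 for LAMB2 and 5 for LAMA5. Of 35116 RefSeq promoter windows of the same length, 42.64% held at least 1. Of the 31 genes, 21 matched a RefSeq entry, with 28 entries in all, and 15 of those 28 held an SP1 match. The AP-1 letters TGANTCA, searched on both strands, occurred in 2 of the 28 (6.57% of all windows), the TATA letters TATAAA in 2 (10.72%) and the CRE letters TGACGTCA in 0 (1.65%).

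Ratios between subunits within a library do not depend on how libraries are scaled, although they still carry differences in GC content and length. The pairs below were chosen after their values were seen. The RPKM of LAMA1 over that of LAMA5 was 1.64, 0.417 and 0.480 with both compounds, against 0.157, 0.169 and 0.159 with DMSO, a mean difference of 4.28-fold. LAMA1 made up 28.9% to 60.9% of the summed RPKM of the 5 laminin alpha genes with both compounds and 13.3% to 14.0% with DMSO, and in replicate 1 of both compounds it exceeded LAMA5.

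LAMB1 over LAMB2 was 2.62, 1.29 and 1.48 with both compounds, against 0.668, 0.630 and 0.751 with DMSO (2.52-fold). LAMB1 thus exceeded LAMB2 in every library with both compounds and in no DMSO library. ITGA6 over ITGB4 was 4.33, 2.08 and 2.46 with both compounds and 0.827, 0.713 and 0.763 with DMSO (3.67-fold), again crossing equality. ITGA2 over ITGB1 was 0.131, 0.0446 and 0.0637 with both compounds and 0.0132, 0.0129 and 0.0161 with DMSO (5.14-fold), so ITGA2 stayed far below its partner. ITGA3 over ITGA5 was 5.38, 5.32 and 5.44 with both compounds and 3.14, 3.49 and 3.17 with DMSO (1.65-fold). In these 5 ratios the groups did not overlap. A further ratio that was computed, ITGB5 over ITGAV, did overlap. It was 14.7, 11.4 and 8.91 with both compounds and 8.95, 12 and 9.33 with DMSO (1.14-fold). All ratios are given as a description, since the pairs were picked on their values. Besides, 3 libraries against 3 cannot give an exact permutation p below 0.1.

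**Figure D3:**
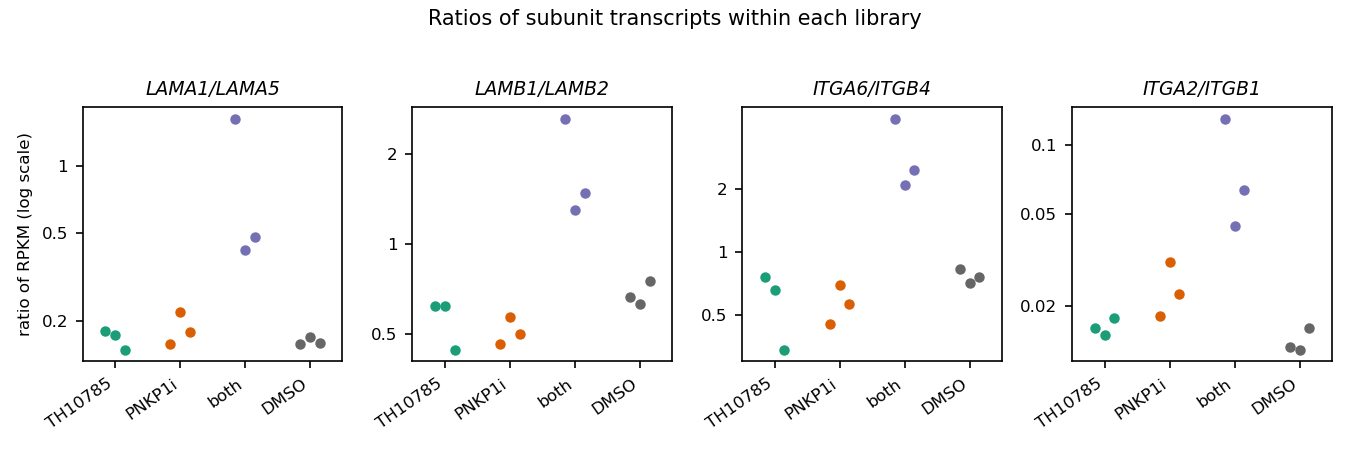
Ratio of RPKM between subunits in each library (points, log axis) for TH10785, PNKP1i, both compounds and DMSO. For LAMA1/LAMA5, LAMB1/LAMB2, ITGA6/ITGB4 and ITGA2/ITGB1 the 3 libraries with both compounds lie above the other 9, with replicate 1 highest.

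GC content differed between the genes by direction. The longest transcripts of the 8 genes that rose had 38.8% to 56.3% GC (median 46.8%), those of the 9 that fell 49.6% to 66.4% (median 60.2%), and those of the 14 without a call 37.8% to 61.3% (median 50.6%). Of the 17 calls against DMSO, 9 were kept in all 20 alternative fits, including the offsets: ITGA2, ITGA6, ITGAX, ITGB5, LAMA1 and LAMB1 higher, and ITGA11 and ITGB4 among the 3 lower. Calls of 8 genes ended with the offsets, those of ITGA1, ITGA4, ITGA5, ITGA7, LAMA3, LAMA5, LAMB2 and LAMC3.

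**Figure D4:**
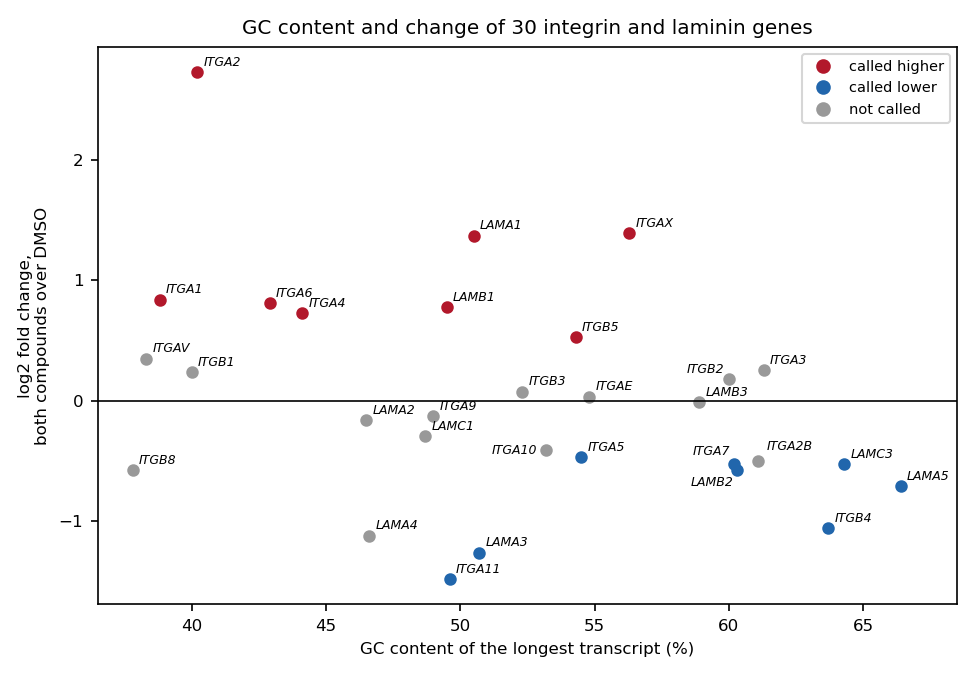
GC content of the longest transcript (%) against the log2 fold change of both compounds over DMSO for 30 of the 31 genes, coloured by call. Of the genes called lower, LAMA5, LAMC3, ITGB4, LAMB2 and ITGA7 lie at the GC-rich end, while LAMA3 and ITGA11 are called lower, and LAMA1 and LAMB1 called higher, at about 50% GC.

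**Figure D5:**
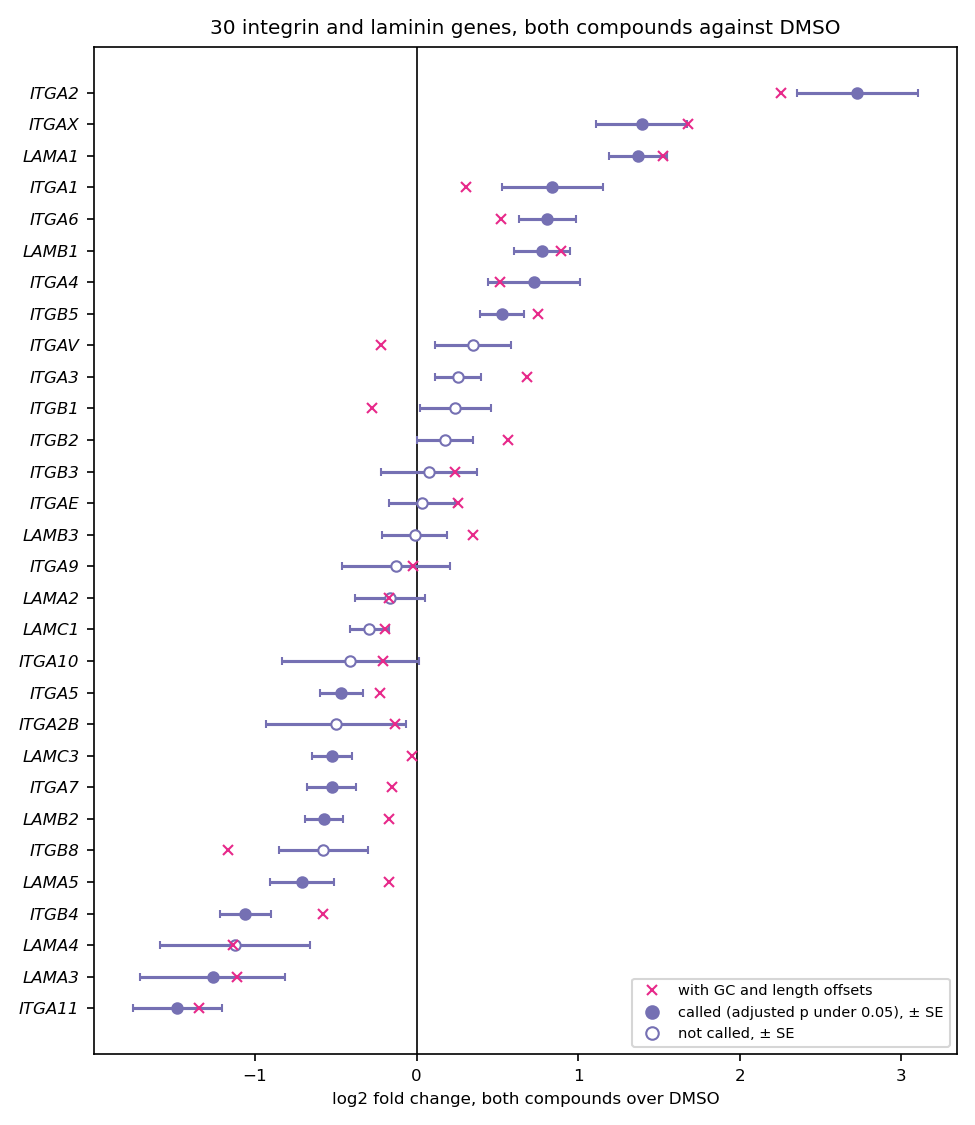
Log2 fold change of both compounds over DMSO for 30 of the 31 genes with its SE (filled, adjusted p under 0.05; open, not called), and the same with GC and length offsets (crosses). The crosses of LAMC3, LAMA5, ITGA7 and LAMB2 lie near 0, and those of ITGAV and ITGB1 lie on the other side of 0.

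Set against TH10785 alone, 7 genes rose and 8 fell with both compounds (48.4%, where 42.3% of all tested genes were called, 22.7% higher and 19.7% lower). In 9 genes the groups did not overlap upward and in 11 downward, against 27.4% and 24.9% of all tested genes. Set against PNKP1i alone, 9 rose and 7 fell (51.6%, where 46.0% of all tested genes were called, 24.4% higher and 21.5% lower). Here 9 genes did not overlap upward and 9 downward, against 30.3% and 27.9% of all tested genes. These comparisons share the libraries with both compounds. ITGA2, ITGA6, ITGAX, LAMA1 and LAMB1 rose and ITGB4 fell against each single compound, in all 20 alternative fits of each comparison. ITGA1 was higher than with TH10785 in all 20 fits (log2 fold change 1.75, SE 0.33, edgeR adjusted p = 0.000891), and higher than with PNKP1i (log2 fold change 1.46, SE 0.32, edgeR adjusted p = 0.00186) except with the offsets (log2 fold change 0.68, edgeR adjusted p = 0.0873). ITGB1 was called higher than with TH10785 (log2 fold change 0.58, edgeR adjusted p = 0.0427), but not without TH10785 replicate 3 (log2 fold change 0.29, edgeR adjusted p = 0.106) or with the offsets (log2 fold change 0.04, edgeR adjusted p = 0.822). That call also ended without PNKP1i replicate 1 or 3, without replicate 1 or 3 of both compounds and without any DMSO library, at edgeR adjusted p of 0.0506 to 0.134. With the offsets the calls of ITGA5, ITGA7, LAMB2 and LAMC3 against TH10785 also ended (edgeR adjusted p of 0.0834 to 0.43), as did those of ITGA4, ITGA5, ITGA7, ITGAV, ITGB1, LAMA5 and LAMC3 against PNKP1i (0.0585 to 0.958).

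ITGB5 showed no call against TH10785 (log2 fold change 0.15, SE 0.13, edgeR adjusted p = 0.396) or PNKP1i (log2 fold change 0.18, SE 0.13, edgeR adjusted p = 0.289), and was called higher in both comparisons with the offsets (0.33 and 0.41).

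The interaction asks whether the effect of both compounds differs from the sum of the single effects on the log2 scale. It was called for 13 of 31 genes (41.9%), 7 positive and 6 negative, where 30.6% of all tested genes were called (16.5% positive and 14.1% negative); of those calls over all genes 40.2% were positive with the offsets and 54.0% without. For ITGA2 the sum of the single log2 fold changes was close to 0 (-0.18 with TH10785 and 0.30 with PNKP1i), and the interaction was 2.61 (SE 0.53, edgeR adjusted p = 0.00561). ITGA6 (1.37), LAMB1 (1.22), ITGB4 (-1.38) and LAMB2 (-0.84) were, with ITGA2, called in all 19 alternative fits of the interaction. ITGA1 had the second largest positive value (2.37, SE 0.48), and its single effects were -0.91 with TH10785 and -0.62 with PNKP1i, neither of them called. With the GC and length offsets the value for ITGA1 was 1.42 (edgeR adjusted p = 0.0338), and the call ended with the replicate block added to them (0.0501).

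The genes that work beside integrins and laminins were taken from 4 lists. With either compound alone, edgeR called 0 of 107 tested genes. An unadjusted p under 0.05 was found for 11 with TH10785 and 13 with PNKP1i, where 2445 and 1957 of all 17290 tested genes had one. DESeq2 called 3 with TH10785 and 0 with PNKP1i. With both compounds 17 rose and 47 fell against DMSO, and 17 and 36 with the GC and length offsets. Of all 17290 tested genes 21.3% were higher and 19.7% lower, with a median log2 fold change of 0.04, and 5886 were called in either direction with the offsets. In the basement membrane list, 1 of 24 rose and 14 fell, with a median log2 fold change of -0.62 (2 and 10 with the offsets, median -0.25). BCAM, a laminin receptor of the immunoglobulin family, averaged 223 ± 57.0 CPM with both compounds and 493 ± 63.0 CPM with DMSO (SD, n = 3 each; log2 fold change -1.14, SE 0.18, edgeR adjusted p = 0.000165). FBLN1, COL18A1 and SPARC, which bind or build basement membrane, had log2 fold changes of -0.87, -1.07 and -0.91, all 3 called also with the offsets; SPARC is also among the lineage markers. SDC4, a heparan sulfate receptor at focal adhesions, was the gene that rose (0.51).

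In the list of integrin adaptors and focal adhesion proteins, 6 of 44 rose and 20 fell, where 21.3% and 19.7% of all tested genes did (median -0.29; with the offsets 4 and 14, median -0.18). NEDD9, a scaffold bound by focal adhesion kinase, averaged 19.6 ± 3.04 CPM with both compounds and 51.8 ± 2.84 CPM with DMSO (SD, n = 3 each; log2 fold change -1.40, SE 0.17, edgeR adjusted p = 2.15e-05). TNS3 (-1.47) and TNS1 (-0.98), tensins that join integrin tails to actin, and TLN2 (-0.73), a talin that activates integrins, fell with it. All 4 were called with the offsets too.

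Of 13 hemidesmosome and integrin-associated membrane proteins, 5 rose and 4 fell (4 and 2 with the offsets), where 21.3% and 19.7% of all tested genes did. SLC3A2, which binds integrin beta tails and carries amino acid transporters, averaged 735 ± 136 CPM with both compounds and 420.0 ± 34.6 CPM with DMSO (SD, n = 3 each; log2 fold change 0.81, SE 0.16, edgeR adjusted p = 0.00101), and the tetraspanin CD63 rose (0.56) while the tetraspanins CD81 (-0.85) and CD82 (-0.74) fell. Among 26 other integrin ligands, 5 rose and 9 fell (7 and 10 with the offsets), the number that rose being near the 21.3% of all tested genes. TGFBI, a secreted matrix protein bound by integrins, averaged 11.96 ± 2.39 CPM with both compounds and 57.5 ± 11.6 CPM with DMSO (SD, n = 3 each; log2 fold change -2.26, SE 0.18, edgeR adjusted p = 5.62e-07), and the collagens COL3A1 (-2.80) and COL1A1 (-1.27) fell. TNC, tenascin C, rose, at 530.2 ± 230.0 CPM with both compounds and 213 ± 31.7 CPM with DMSO (SD, n = 3 each; log2 fold change 1.32, SE 0.21, edgeR adjusted p = 0.000169).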

How the data were processed

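RNA was extracted with TRIzol, and libraries were made with a NEBNext Ultra kit and sequenced as paired-end reads, per the labels' protocols. The authors deposited raw counts per gene for 12 libraries, and per the submitters' processing notes HISAT2 2.0.5, HTSeq 0.6.1 and DESeq2 1.30.1 were used with GRCh38. The counted annotation is not named there, but all 58735 identifiers are in GENCODE release 29, which gave positions, exon lengths and GC content. A second deposited table of normalized values was not used.

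Tests ran on these counts in edgeR 4.0.16 (R 4.3.3). filterByExpr (minimum count 10, minimum total 15) kept 17290 genes, libraries were scaled by TMM, and robust quasi-likelihood F tests, two-sided, used group means over all 12 libraries. P-values were adjusted by Benjamini-Hochberg over all tested genes, with the threshold at 0.05. The biological coefficient of variation was 15.4%, and the fits were tested on simulated data with known changes. CPM are TMM-scaled, and RPKM divide them by exon length. The SD comes from the 3 libraries of a group. The SE comes from the edgeR fit, whose spread is estimated over all 12 libraries and moderated across genes. Totals of at least 16225339 counts leave genes of a few CPM with counting error beside the spread between libraries.

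Alternatives were RLE scaling, DESeq2 1.42.0, no filter, a stricter filter, only the groups compared, the replicate number as a block, GC and length offsets (splines, 5 degrees of freedom; GC known for 17282 genes), the block with the offsets, and each library left out in turn. 1 gene of the set is counted with the others, but its own values are not reported here; every other gene is named, with values per library for those called and for ITGB1, ITGAV and LAMC1; up to 4 called genes a list are named from the partner lists, and other named partners were chosen after their values were seen. The genes and lists were chosen with earlier results of these data known. No replicate pair agreed within sampling noise (chi-square per gene 2.97 to 35.3), so no libraries were merged as copies and each counted as 1 sample. That check cannot tell separate cultures from separate libraries of 1 culture.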

Additional observations from a re-analysis of the deposited data

Results flagged for a closer look

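The effect of one compound differed with the presence of the other for 13 of the 31 genes, by the interaction term of the edgeR fit (adjusted p under 0.05). Positive values, where both compounds together were higher than the sum of the single effects, were 2.61 on the log2 scale for ITGA2, 2.37 for ITGA1, 1.37 for ITGA6, 1.22 for LAMB1, 1.08 for ITGB1, 1.0 for ITGAV and 0.88 for LAMA1. Negative values included -0.69 for ITGA7, -0.73 for ITGB2, -0.84 for LAMB2, -0.98 for LAMA5 and -1.38 for ITGB4. Over all 17290 tested genes 30.6% were called in the same term.

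For ITGB1 and ITGAV the term holds single effects below 0 (-0.34 and -0.50 for ITGB1 with TH10785 and PNKP1i, -0.19 and -0.46 for ITGAV), and neither was called with the GC and length offsets (0.41, edgeR adjusted p = 0.106, and 0.11, edgeR adjusted p = 0.675). ITGB2 (-0.43) and ITGA7 (-0.36) were not called with the offsets either, and ITGA1 was at 1.42 with them. Leaving out 1 library ended the term's call for LAMA1 (TH10785 replicate 3), ITGB1 (PNKP1i replicate 3), ITGA7 (PNKP1i replicate 1 or DMSO replicate 1), ITGAV (PNKP1i replicate 1 or 3, replicate 3 of both compounds, or DMSO replicate 1 or 3) and ITGB2 (PNKP1i replicate 1 or 3, replicate 1 or 3 of both compounds, or DMSO replicate 1 or 3), with edgeR adjusted p of 0.0518 to 0.109 in those fits.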

How the results depend on the processing

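With the GC and length offsets, and likewise with the replicate block added to them, the genes called lower with both compounds numbered 4 against DMSO, 5 against TH10785 and 4 against PNKP1i, in place of 9, 8 and 7, and ITGA3 against PNKP1i was called higher (0.38, where it was -0.01 without them). Of all 17290 tested genes, 5886, 5778 and 5755 were called in these 3 comparisons with the offsets, in place of 7093, 7317 and 7945. The offsets alone called 1 gene higher with TH10785. Without the low-count filter 1 gene was lower with TH10785. When only the groups compared were fitted, 3 genes were higher and 3 lower with PNKP1i. The replicate block alone left 0 lower with PNKP1i. The deviations of same-numbered libraries from their group means correlated at -0.25 to 0.13. With 3 libraries a group, such correlations cannot exclude a shared culture or batch. No pairing was assumed in the main fit. Leaving out 1 library at a time gave 0 to 2 genes lower with PNKP1i and 3 to 7 in the negative interaction.

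Over all tested genes, 97 were called with TH10785, against 318 by DESeq2, 513 without the filter and 285 with the offsets; 34 with PNKP1i, against 111, 189 and 91, with 15 under the block and 1150 when only the groups compared were fitted; and 5289 for the interaction, against 3264 with the offsets and 2699 with block and offsets. Leaving out 1 library gave 44 to 178 calls with TH10785, 7 to 301 with PNKP1i and 3492 to 6140 for the interaction. The causes were not tested. The SE of LAMA3, LAMA4, ITGA10 and ITGA2B, genes of a few CPM or less, was 0.43 to 0.46 on the log2 scale with both compounds against DMSO, and differences there may be missed at this depth.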
